A study of Mus musculus with 4 samples.

Results

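Expression of 10 genes of myoblast fusion and cell contact was measured in differentiating C2C12 cells, with interferon-gamma (IFN-γ) set against no cytokine. The genes were Mymk, Cdh15, Cdh2, Ncam1, Jam3, Cdon, Boc, Cav3, Dysf and Myof, taken by name, and every array probe whose transcript maps to one of them was kept. They were read by 14 of the 39429 probes and made up 10 of the 19751 genes named on the array. C2C12 is an established mouse myoblast line whose cells leave the cell cycle and fuse into multinucleated myotubes when serum is lowered. The IFN-γ group was differentiated for 3 days in horse serum with IFN-γ at 1 ng/ml, and the control group was untreated and taken on the same day 3. Both groups had been grown in 10% fetal bovine serum to about 80% confluence, with at most 7 passages. The labels give the horse serum as 2% in one field and 10% in another. Each of 4 arrays carried RNA of IFN-γ-treated cells in Cy5 and of control cells in Cy3, and since the dyes were never swapped, a probe's dye bias and the treatment cannot be told apart. The treated samples are labelled as biological replicates, whereas nothing tells if each control RNA came from its own culture. The p-values therefore cover array-to-array spread only, which may be technical in part.

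Myoblasts fuse in steps. Cadherins, NCAM and other immunoglobulin proteins first hold neighbouring cells together, the co-receptors CDON and BOC signal from those contacts, and Myomaker, the product of Mymk, then lets the apposed membranes merge. Caveolin-3 and the ferlins dysferlin and myoferlin serve the muscle cell membrane, in caveolae, in repair and in vesicle and cell fusion.

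All values below are log2 ratios of IFN-γ over control, normalised within each array by loess, or probe intensities in arbitrary units. The intensities were normalised between arrays after loess. A gene was called when its adjusted p over all 15678 tested genes was under 0.05. Median intensities per array were 149.5 to 264 in Cy5, the IFN-γ channel, and 79.8 to 97 in Cy3, the control channel. Replicate 2 stood apart: its ratios over tested genes correlated with those of the other arrays at r = 0.629 to 0.715, against 0.862 to 0.898 among replicates 1, 3 and 4. The arrays share 1 slide and 1 scan, and these correlations are a description. Calls and means are therefore also given without replicate 2. The scale matters as well. Centring each array on its median in place of loess put the median tested gene at 0.69, against 0.03 under loess, and a sign below 0 under loess can then turn. Where this happens it is stated, and values relative to that median gene are given as differences from it.

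Of the 10 genes, 5 were called lower with IFN-γ, 2 were called higher and 3 were not called, and under median centring those 5 had positive ratios that lay below the median gene. Over all tested genes 13.9% were called lower and 19.8% higher under loess. On that scale the members' count of lower calls was above the background and their count of higher calls was close to it. Lower calls were 4 of 10, beside 34.9% of genes, with median centring on the tested genes, and 1, beside 17%, under median centring. The members were chosen with earlier results of these data known. Under loess Mymk, Cav3, Cdh2, Dysf and Cdon were the lower genes, and Jam3 and Boc were the higher ones. Cdh15, Ncam1 and Myof were not called. The members' median log2 ratio was −0.34, against 0.03 over all tested genes, and −0.30 without replicate 2. Under loess with all 4 arrays none of the 10 reached a 2-fold difference, a size that 1.79% of tested genes reached as higher calls and 0.982% as lower calls. Mymk passed that size without replicate 1, at −1.09 (adjusted p = 0.00544), as did Jam3, Boc and Ncam1 under median centring, where the median gene is itself shifted. Without replicate 2 the counts were again 5 lower and 2 higher, where 19% of genes were called lower and 25.9% higher. By probe, 9 of the 14 were called lower, 2 higher and 3 not at all, with 12.6% and 16.5% of all tested probes called lower and higher, and the counts were again 9 and 2 without replicate 2. All 14 probes were tested, none was saturated, and 13 were well above background in both channels on all arrays.

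**Figure D1:**
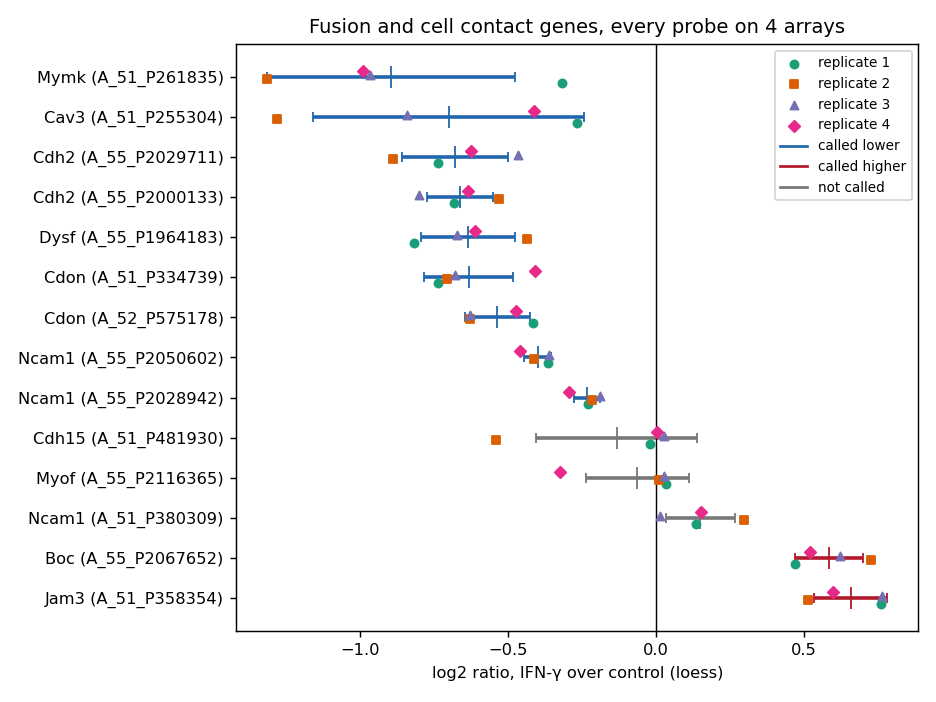
Log2 ratio of IFN-γ over control (x axis, loess) for each of the 14 probes (rows), with 1 symbol per array and a bar for mean ± SD over 4 arrays, coloured by the call of that probe. The 9 probes called lower lie left of 0 on every array and the 2 called higher lie right of 0, while under median centring most of the lower ones have positive ratios that lie below the median of tested genes.

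Mymk encodes Myomaker, the muscle-specific membrane protein that myoblasts need in order to fuse. Its probe read 3208, 1927, 2481 and 2197 in IFN-γ-treated cells on replicates 1 to 4, against 3997, 4794, 4847 and 4365 in control cells. Every treated value lay below every control value, and replicate 1 showed the smallest gap. The log2 ratios were −0.32, −1.31, −0.97 and −0.99, with a mean of −0.90 ± 0.42 (SD, n = 4) and a 95% interval of −1.28 to −0.52. Mymk thus stood at 53.7% of control and was called lower (adjusted p = 0.00812), although under median centring its mean was 0.10 (adjusted p = 0.549), which is 0.59 below the median gene's 0.69. Only 1.40% of tested genes had a lower mean. Without replicate 2 the mean was −0.76 (adjusted p = 0.00353). In bulk RNA, fewer fusing cells and less Mymk RNA per cell cannot be told apart.

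Genes that followed Mymk most closely over the 4 arrays were found by Euclidean distance between log2 ratios, a measure over 4 values only. Among the 5 nearest were Hes6 at a distance of 0.250, Synb at 0.267, Marchf9 at 0.274 and Nkx2-2 at 0.276. Hes6 encodes a transcription factor of the Hes family, and Synb encodes syncytin-B, a membrane protein of retroviral origin that fuses cells of the mouse placenta. Mean log2 ratios were −0.94 for Hes6, −0.98 for Synb, −0.92 for Marchf9 and −0.85 for Nkx2-2, and means close to that of Mymk follow from the way these genes were chosen. Under median centring Hes6 and Marchf9 turned positive, at 0.07 and 0.08, or −0.62 and −0.61 relative to the median gene. Synb and Nkx2-2 had −0.83 and −0.57 there, or −1.53 and −1.27 relative to the median gene.

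**Figure D2:**
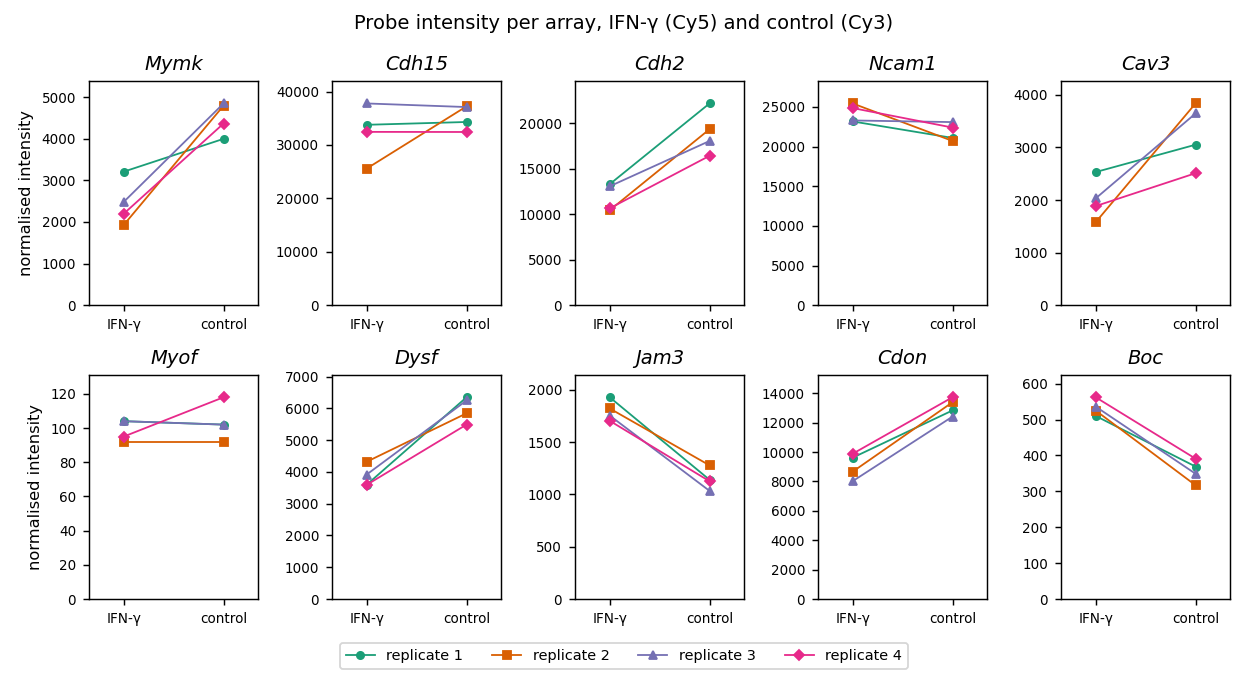
Normalised probe intensity (y axis, arbitrary units, each panel from 0 on its own scale) of the 10 genes in IFN-γ-treated cells (left) and control cells (right), with 1 line per array. Each gene is shown by its brightest tested probe. After loess and normalisation between arrays, Mymk, Cdh2, Dysf and Cdon have all 4 IFN-γ values below all 4 control values, and Ncam1, Jam3 and Boc have all 4 above.

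Among all genes with intensities on every array, 12.5% had their 4 IFN-γ values below their 4 control values and 20.1% had them above. The members' counts were 4 and 3 of 10. Ncam1 was among those above but was not called.

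The cadherins did not share one pattern. Cdh2 encodes N-cadherin, a calcium-dependent adhesion protein of myoblasts and neurons, and was read by a pair of probes. Its brighter probe read 13283, 10423, 13052 and 10637 in IFN-γ-treated cells and 22150, 19319, 18028 and 16401 in control cells. The other probe read 8096, 9268, 7046 and 6267 with IFN-γ and 13008, 13412, 12291 and 9741 in controls. Treated values lay below all control values for both probes. The brighter probe had a mean log2 ratio of −0.68 ± 0.18 (SD, n = 4, adjusted p = 0.00292), and the other −0.66 ± 0.11 (adjusted p over probes = 0.00269). Cdh2 was therefore called lower at 62.4% of control under loess, while under median centring it had 0.34, which is 0.36 below the median gene. Without replicate 2 the brighter probe had −0.61 (adjusted p = 0.000869) and the other −0.71 (adjusted p over probes = 0.000491).

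Cdh15 encodes M-cadherin, the cadherin typical of skeletal muscle precursors. Its probe read 33775, 25581, 37771 and 32448 in IFN-γ-treated cells, against 34301, 37230, 37097 and 32428 in control cells. The groups overlapped, and only replicate 2 showed a clear gap. The log2 ratios were −0.02, −0.54, 0.03 and 0.00, with a mean of −0.13 ± 0.27 (SD, n = 4) and a 95% interval of −0.40 to 0.13 (adjusted p = 0.390). Without replicate 2 the mean was 0.0015 (adjusted p = 0.986), and under median centring it was 0.89, which is 0.20 above the median gene. Compared on the same array, the Cdh15 ratio exceeded that of Cdh2 on 4 of 4 arrays, by 0.55 ± 0.16 on average. An exact sign-flip test gave p = 0.125, the smallest that 4 arrays allow. The difference was 0.56 under median centring and 0.56 with the scanner software's own ratios.

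Ncam1, the neural cell adhesion molecule, also found on fusing myoblasts, had 3 probes that disagreed. The brightest, designed on transcript NM_001113204, read 23178, 25447, 23303 and 24865 in IFN-γ-treated cells and 21100, 20717, 23096 and 22405 in control cells. All treated values lay above all control values, by little, and its mean log2 ratio of 0.15 ± 0.12 (SD, n = 4) was not called (adjusted p = 0.152). Both other probes were designed on NM_010875. Probe A_55_P2050602 read 10674, 9352, 10122 and 9142 with IFN-γ and 13757, 12454, 13008 and 12568 in controls, and its mean was −0.40 ± 0.05 (adjusted p over probes = 0.00639). Probe A_55_P2028942 read 3439, 2929, 4154 and 3976 with IFN-γ and 4033, 3405, 4745 and 4877 in controls, with a mean of −0.23 ± 0.04 (adjusted p over probes = 0.0301). Both were called lower under loess, and again without replicate 2. Under median centring they had positive ratios of 0.61 and 0.77, or −0.08 and 0.08 relative to the median gene, so that A_55_P2028942 lay above it. With centring on the tested genes A_55_P2050602 had −0.06 (adjusted p = 0.608) and A_55_P2028942 had 0.10 (adjusted p = 0.387), and neither was called. The smaller of the differences, that of A_55_P2028942, lost its call without replicate 1, 3 or 4 (adjusted p = 0.0967, 0.107 and 0.126).

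The disagreement between Ncam1 probes was also present within each array. The ratio of the NM_001113204 probe exceeded that of A_55_P2050602 on 4 of 4 arrays, by 0.55 ± 0.14 (SD, n = 4). It exceeded that of A_55_P2028942 on 4 of 4 arrays by 0.38 ± 0.13. Each exact sign-flip test gave p = 0.125, the smallest possible. Under loess the first probe lay above 0 and the other probes below 0 on all 4 arrays. The 4 of 4 and the p-values thus follow from those signs and add no support. Under median centring the differences were 0.56 and 0.40. A gene-level value for Ncam1 depends on the probe: the mean of its 3 probes was −0.16 (adjusted p = 0.0686), opposite in sign to the brightest probe.

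Jam3, a junctional adhesion molecule of the immunoglobulin family that binds its relative JAM2 on a neighbouring cell, was called higher. Its probe read 1929, 1822, 1754 and 1704 in IFN-γ-treated cells, against 1140, 1278, 1034 and 1126 in control cells. Treated and control values did not overlap. The mean log2 ratio was 0.66 ± 0.12 (SD, n = 4, 95% interval 0.48 to 0.83, adjusted p = 0.00201), or 1.58-fold, and 95.4% of tested genes had a lower mean. It was 0.71 without replicate 2 (adjusted p = 0.000356) and 0.93 above the median gene under median centring. On each array the Jam3 ratio exceeded the Mymk ratio, by 1.55 ± 0.33 on average and by 1.51 under median centring (exact sign-flip p = 0.125, the smallest possible). Under loess Jam3 had the highest mean of the members and Mymk the lowest. A mean difference above 0 thus follows from the choice of this pair, and the test adds no support.

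Cdon and Boc encode related immunoglobulin and fibronectin repeat co-receptors that bind each other, cadherins and Hedgehog ligands and promote myogenic differentiation. Their ratios lay on opposite sides of 0 under loess. The brighter Cdon probe read 9616, 8663, 8018 and 9883 in IFN-γ-treated cells, against 12831, 13389, 12410 and 13727 in control cells. Its dimmer probe read 255, 252, 275 and 277 with IFN-γ and 425, 412, 441 and 369 in controls. Treated and control values did not overlap for either probe. The brighter probe had a mean log2 ratio of −0.54 ± 0.11 (SD, n = 4, adjusted p = 0.00319), and the dimmer −0.63 ± 0.15 (adjusted p over probes = 0.00417). Under median centring the brighter probe had 0.47, which is 0.22 below the median gene. The dimmer probe had −0.05 there (adjusted p over probes = 0.654), or −0.75 relative to the median gene, so the 2 probes moved unlike amounts. Without replicate 2 the brighter probe had −0.51 (adjusted p = 0.00147) and the dimmer −0.61 (adjusted p over probes = 0.00166).

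Boc read 510, 525, 536 and 562 in IFN-γ-treated cells, against 369, 317, 349 and 391 in control cells. Again no values overlapped, this time with the treated cells above. Its mean log2 ratio was 0.58 ± 0.11 (SD, n = 4, 95% interval 0.41 to 0.75, adjusted p = 0.00260), or 1.50-fold. Of the tested genes 93.9% had a lower mean. Without replicate 2 it was 0.54 (adjusted p = 0.000915), and under median centring it lay 0.59 above the median gene.

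Within the same array a shift common to all probes cancels, but a shift that changes with brightness, or a probe's own dye bias, does not. Compared in this way, the Boc ratio exceeded that of the brighter Cdon probe by 0.89, 1.36, 1.25 and 0.99 on replicates 1 to 4. The mean difference was 1.12 ± 0.22 (SD, n = 4), with 1.22 ± 0.21 against the dimmer Cdon probe. Both exact sign-flip tests gave p = 0.125, the smallest that 4 arrays allow. Under loess Boc lay above 0 and both Cdon probes below 0 on all 4 arrays. The p-values thus follow from those signs and add no support. Under median centring the differences were 0.81 and 1.34, and with the scanner software's ratios 1.21 and 1.56. The Boc ratio thus exceeded the Cdon ratio on every array under all 3 scalings.

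**Figure D3:**
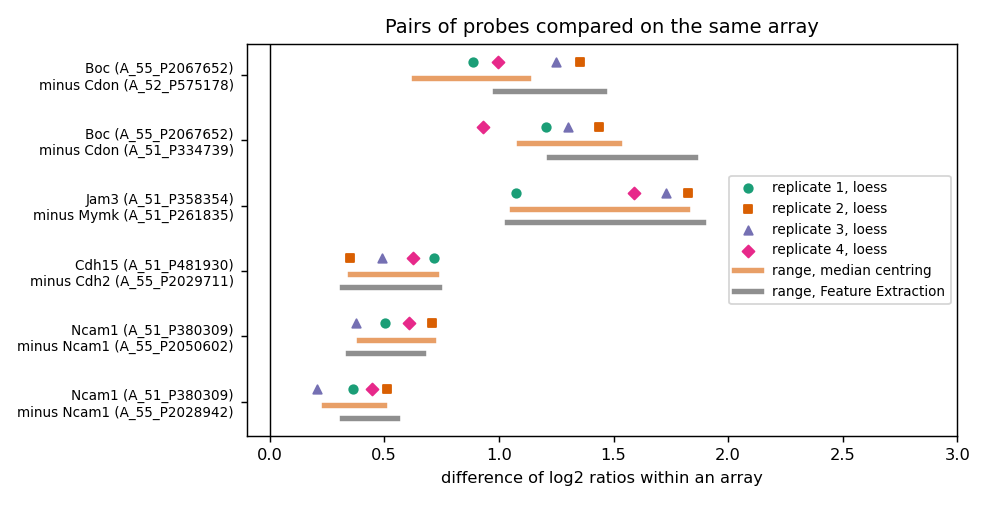
Difference between the log2 ratios of 2 probes on the same array (x axis) for 6 pairs (rows), with symbols for the 4 arrays under loess and bars for the range over arrays under median centring and with the Feature Extraction ratios. All symbols and bars lie right of 0, from 0.20 for a pair of Ncam1 probes to 1.89 for Jam3 over Mymk. The pairs and the order within each were not chosen by a rule, and that of Jam3 and Mymk sets the highest member mean under loess against the lowest. Not shown are Dysf minus Cav3, at −0.55 to 0.85 under loess, and Mymk minus Cav3, at −0.58 to −0.03.

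Cav3 encodes caveolin-3, the muscle form of the protein that shapes caveolae. Its probe read 2532, 1578, 2031 and 1885 in IFN-γ-treated cells, against 3052, 3837, 3646 and 2510 in control cells. The groups overlapped by 1 value, since treated replicate 1 exceeded control replicate 4, but the ratio was below 0 on each array. The log2 ratios were −0.27, −1.28, −0.84 and −0.41, with a mean of −0.70 ± 0.46 (SD, n = 4, 95% interval −1.11 to −0.29). Cav3 was called lower (adjusted p = 0.0229), with the widest spread of the members, and under median centring it had 0.29, which is 0.40 below the median gene. The call held without replicate 2 at −0.51 (adjusted p = 0.00863), and was lost without replicate 3 (adjusted p = 0.0977) or replicate 4 (adjusted p = 0.0542). The Mymk ratio minus the Cav3 ratio was −0.19 ± 0.26 (SD, n = 4), with −0.12 to −0.03 on replicates 1 to 3 and −0.58 on replicate 4.

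Dysf encodes dysferlin, a membrane-anchored ferlin that acts in resealing torn muscle membrane. Its probe read 3598, 4321, 3919 and 3595 in IFN-γ-treated cells and 6352, 5847, 6251 and 5492 in control cells, with no overlap. The mean log2 ratio was −0.64 ± 0.16 (SD, n = 4, adjusted p = 0.00297), or 64.4% of control, and under median centring it was 0.37, which is 0.32 below the median gene. Without replicate 2 it was −0.70 (adjusted p = 0.000403). Dysf and Cav3 had like means but unlike profiles over arrays: the difference of their ratios was 0.07 ± 0.60, ranging from −0.55 on replicate 1 to 0.85 on replicate 2 (exact sign-flip p = 0.875).

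Myof encodes myoferlin, a ferlin that serves myoblast fusion in the mouse, and was the dimmest member. Its probe read 104, 92, 104 and 95 with IFN-γ, against 102, 92, 102 and 118 in controls, and was well above background on 4 arrays in the IFN-γ channel and on 2 in the control channel. The mean log2 ratio was −0.06 ± 0.17 (SD, n = 4, 95% interval −0.27 to 0.14, adjusted p = 0.591), and −0.09 without replicate 2. At this brightness the value moved with the scaling, to −0.41 under median centring (adjusted p = 0.00698), which is 1.10 below the median gene.

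Promoters came from the RefSeq promoter table (assembly GRCm38.p6, 250 bases before to 50 bases after a gene's start, 300 in all). Not every member was examined: the promoters read were those of 5 of the 10, namely Cdh15, Cav3, Dysf, Cdon and Myof. They were searched on both strands for the E-box CANNTG, the letters that myogenic bHLH factors such as MyoD and myogenin can bind. The promoters of Cav3, called lower under loess, and of Cdh15, not called, are printed because both genes belong to the muscle programme and both windows hold several such matches, in capitals.
Cav3, chr6:112459255-112459554, plus strand: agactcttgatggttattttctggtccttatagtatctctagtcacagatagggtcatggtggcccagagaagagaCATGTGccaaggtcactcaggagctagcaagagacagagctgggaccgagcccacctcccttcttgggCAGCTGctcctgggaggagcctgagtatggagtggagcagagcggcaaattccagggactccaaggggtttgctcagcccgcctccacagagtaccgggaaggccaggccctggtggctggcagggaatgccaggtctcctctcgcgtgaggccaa
Cdh15, chr8:122848124-122848423, plus strand: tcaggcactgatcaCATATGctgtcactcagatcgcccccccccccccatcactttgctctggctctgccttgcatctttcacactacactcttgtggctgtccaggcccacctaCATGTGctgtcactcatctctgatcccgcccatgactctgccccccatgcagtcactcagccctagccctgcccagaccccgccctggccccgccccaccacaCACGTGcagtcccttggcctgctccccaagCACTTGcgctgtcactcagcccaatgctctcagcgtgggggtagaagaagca

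Cav3 had 2 E-box matches, with first bases at −174 and −106 from the start, of which the second reads CAGCTG. Cdh15 had 4, at −236, −135, −32 and −2. Of 2 listed Dysf starts, the first had 0 matches and the second 1, at 23, and Cdon and Myof had 0. An E-box match occurs in 72.3% of all 32851 promoters in the table and CAGCTG in 16.3%. None of the 6 windows held an IRF-type pair of GAAA with any 2 bases between, found in 3.44% of promoters, or the MEF2-like CTA, any 4 bases and TAG, found in 3.69%. A match is a description of letters, and its absence says only that these letters are not in this window.

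Side of the median gene was steadier than sign for the members called lower under loess. Over 15 alternative settings, Mymk, Cdh2, Cav3, Dysf and Cdon lay below the median of tested genes in 15 of 15, and Jam3 and Boc lay above it and were called higher in 15 of 15. These settings are not independent, and some cannot move a member's ratio. The Mymk mean stayed at −0.90 under both filters, the probe mean and the methods' t-test. The authors' value table repeats the Feature Extraction ratios, with −0.93 for Mymk in each. Cdh15, Ncam1 and Myof each changed side in at least 1 setting, and Myof became the lowest member under both median centrings. Under median centring 7 members were called higher and 1 lower, where 67% of all tested genes were called higher and 17% lower. With each array centred on the median of the tested genes in place of loess, 3 members were called higher and 4 lower, beside 30% and 34.9% of genes. In that setting Mymk had −0.57 (adjusted p = 0.0126), Cdh2 −0.34 (adjusted p = 0.0299) and Dysf −0.30 (adjusted p = 0.0349), and all 3 were called lower. Cav3 had −0.38 (adjusted p = 0.0720) and Cdon −0.20 (adjusted p = 0.0992), and neither was called. Myof was called lower there at −1.08 (adjusted p = 0.000321), and the brightest Ncam1 probe was called higher at 0.50 (adjusted p = 0.00225).

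**Figure D4:**
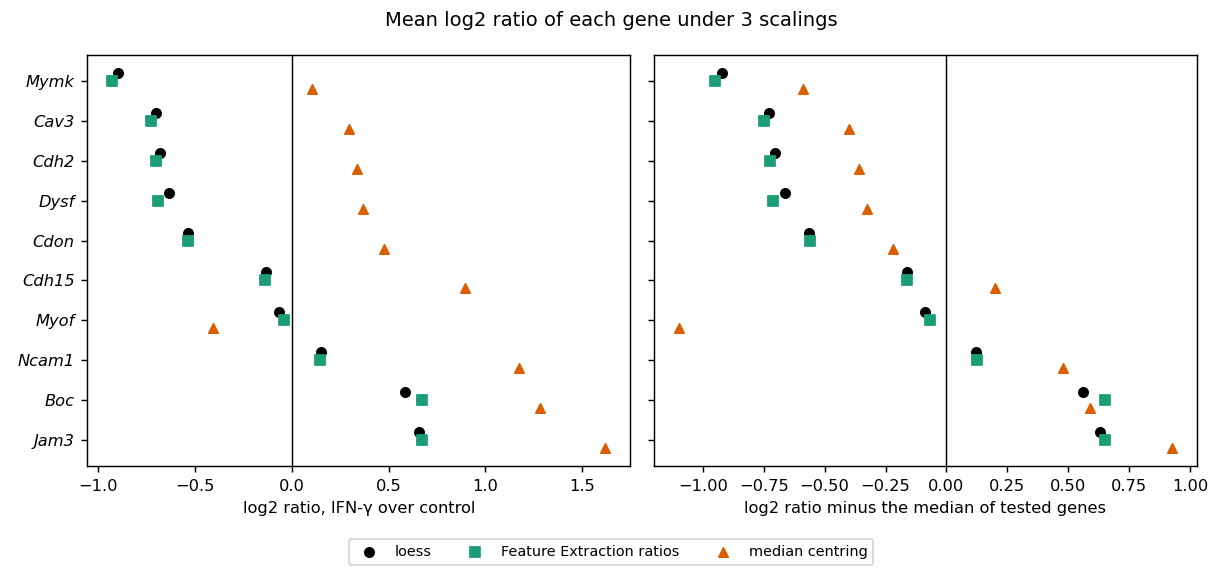
Mean log2 ratio of IFN-γ over control for each gene (rows) under loess, with the Feature Extraction ratios and under median centring, as computed (left) and after subtracting the median of all tested genes (right). Under median centring all genes but Myof move to the right of 0 on the left panel, while on the right panel Mymk, Cav3, Cdh2, Dysf and Cdon stay left of 0 and Boc and Jam3 stay right of it.

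The cells' identity was checked against marker lists. All 10 myotube differentiation markers were well above background in both channels on at least 3 arrays. Of them 6 were called lower with IFN-γ (Ckm, Myh3, Myh8, Tnnt3, Mylpf and Des), none was called higher, and Myog, Myod1, Mef2c and Acta1 were not called. The same 6 were called lower without replicate 2. Under median centring Myh3, Myh8 and Tnnt3 had positive ratios of 0.43, 0.31 and 0.39, and all 6 lay below the median gene. The summed intensity of all 10 markers was 218521 to 258589 in IFN-γ-treated cells and 306120 to 390920 in control cells, so markers of differentiated muscle moved with the lower members. That sum includes the uncalled Myog and Acta1. Myf5, a marker of undifferentiated myoblasts, was called higher at 0.60 ± 0.15 and so was Vcam1, while Sdc4 was called lower under loess, with 0.38 under median centring, or −0.31 relative to the median gene, and Pax7, Pax3 and Cd34 were not called.

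Of 8 fibroblast markers 5 (Pdgfra, Col1a1, Lum, Fap and Twist2) were called higher and none lower, with ratios of −0.12 for Lum and −0.57 for Fap relative to the median gene under median centring, and with a summed intensity of 68760 to 79092 with IFN-γ and 50339 to 69657 in controls. Col1a1 alone read 47305 to 61353 with IFN-γ and 33606.5 to 50131 in controls. Thy1 and Tcf21 were not tested, and Tcf21 was well above background on no array in either channel. Among 6 macrophage markers Csf1r was called lower under loess, with 0.50 under median centring, or −0.19 relative to the median gene. Adgre1, Csf1r and Itgam were well above background on 4 arrays in both channels. Ptprc was so on 4 arrays with IFN-γ and 1 in controls, Lyz2 on no array, and Cd68 had no probe. The sum was 44086 to 70668 with IFN-γ and 55979 to 79135 in controls. Most of it was Itgam, at 43183 to 69629 with IFN-γ and 54629 to 77874 in controls. Of the 5 endothelial markers Kdr was called lower, and Cdh5, Tie1 and Emcn were well above background on no array. Of 6 markers of neurons or glia, 6 were well above background on at least 3 arrays with IFN-γ and 5 in controls. Snap25 alone read 33375 to 51877 with IFN-γ and 43502.5 to 57213 in controls. Only Gfap of these 6 was called, lower at −0.20. Without replicate 2 these calls were all made again, and Itgam, a macrophage marker, and Snap25, a neuronal one, were also called lower, at −0.30 each. The part of these markers in the members' ratios was not tested.

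The genes around the members were counted in 6 lists that together hold 170 genes, of which 148 were tested, 41 were called higher and 25 lower. Shares of 19.8% higher and 13.9% lower over all tested genes stand beside these counts. The counts in each list were unstable when arrays were left out, and so were those over all genes. Without replicate 1, 2, 3 or 4, 13.2%, 25.9%, 10.2% and 11.5% of all tested genes were called higher. In the same order 8.29%, 19%, 5.92% and 6.88% were called lower. Median centring called 67% of all tested genes higher and 17% lower, and centring on the tested genes 30% and 34.9%. The list counts below are to be read beside these shares. All 6 list medians lay between 0.0074 and 0.05 under loess, near the 0.03 of all tested genes. Mymx, the partner of Mymk in fusion, was not analysed here.

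Of 22 tested surface and secreted partners of fusion, 7 were called higher and 3 lower under loess, and leaving out 1 array gave 4 to 8 higher and 2 to 3 lower. Median centring gave 15 and 5, and centring on the tested genes 8 and 10. Vcam1, an adhesion molecule that binds integrin on the opposing cell, had 1.42 ± 0.19 (SD, n = 3, replicate 2 dropped as an outlier spot, adjusted p = 0.000999), or 2.67-fold. Cxcr4, a chemokine receptor of migrating myoblasts, had 0.83 ± 0.28 (adjusted p = 0.00372). Nphs1, which encodes nephrin, had −1.35 ± 0.47 (adjusted p = 0.00326) and kept a negative ratio of −0.91 under median centring. Itga7, the laminin receptor subunit of muscle and the brightest uncalled gene of the list, had −0.08 ± 0.06. Without replicate 2 Cxcr4 had 0.71 and Nphs1 −1.17, and both were called again.

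Fusion also needs actin-driven membrane protrusion, and 37 genes of the Rac, Arf6, actin and vesicle machinery were tested. Of these 10 were called higher and 8 lower, with 10 and 12 without replicate 2, 4 and 2 without replicate 3, 5 and 4 without replicate 4 and 8 and 2 without replicate 1. Median centring gave 34 and 1, and centring on the tested genes 17 and 5. Rac1, the small GTPase at the centre of this machinery, had 0.73 ± 0.32 (adjusted p = 0.00801), but its other probe had 0.01 and was not called. Myo10, a motor protein of filopodia, had −0.88 ± 0.45 (adjusted p = 0.0103) under loess and 0.03 under median centring, or −0.67 relative to the median gene. Wasf2, a WAVE subunit that turns Rac signals into actin growth, had −0.65 ± 0.34 (adjusted p = 0.0134) and 0.38 under those 2 scalings, the second −0.32 relative to the median gene, and its other probes had −1.08 and −0.04. Tln1, which encodes talin, was not called at −0.20 ± 0.31, though another of its probes was called lower at −1.30. Without replicate 2 Rac1 had 0.84, Myo10 −0.66 and Wasf2 −0.48, all called again, and Tln1 was called lower at −0.35.

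Cadherins act through catenins. In that list 5 of 15 tested genes were called higher and 2 lower, with the same counts without replicate 2 and 3 and 2 without replicate 3 or 4. Median centring gave 12 and 2, and centring on the tested genes 7 and 3. Ctnnb1, which encodes β-catenin, had 0.74 ± 0.05 (SD, n = 4, adjusted p = 0.000773), or 1.67-fold. Cdh11, a cadherin of mesenchymal cells, had 0.84 ± 0.20 (adjusted p = 0.00187), but its other probe had −0.02. Pcdh1 had −0.58 ± 0.19 (adjusted p = 0.00501) under loess and 0.41 under median centring, or −0.28 relative to the median gene. Ctnnd1, which encodes p120-catenin, was not called at 0.05 ± 0.22. Without replicate 2 Ctnnb1 had 0.72, Cdh11 0.89 and Pcdh1 −0.56, and all were called again.

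Around CDON and BOC, 7 of 21 tested genes were called higher and 3 lower, with 7 and 4 without replicate 2 and 4 and 2 without replicate 3. Median centring gave 14 and 3, and centring on the tested genes 9 and 7. Ntn1, which encodes the guidance ligand netrin-1, had 1.17 ± 0.09 (SD, n = 4, adjusted p = 0.000171) on its brightest probe and −0.10 on the other. Gas1, a Hedgehog co-receptor that works beside CDON and BOC, had 1.13 ± 0.22 (adjusted p = 0.000891) on its brightest probe, with −0.09 and 0.32 on the others. Rgma, a neogenin ligand, had −0.69 ± 0.11 (adjusted p = 0.00163) under loess and 0.21 under median centring, or −0.48 relative to the median gene. Cdc42, the GTPase that CDON signalling engages, was not called at 0.04 ± 0.04. Without replicate 2 Ntn1 had 1.16, Gas1 1.04 and Rgma −0.72, and all were called again.

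In the list of caveolae, ferlins and membrane repair, 9 of 32 tested genes were called higher and 6 lower, with 11 and 9 without replicate 2 and 4 and 3 without replicate 3. Median centring gave 32 and 0, beside 67% and 17% of all tested genes. Centring on the tested genes gave 14 and 0, beside 30% and 34.9%. Anxa5, a calcium-dependent membrane-binding annexin, had 0.91 ± 0.17 (adjusted p = 0.00102) and Pdcd6, a calcium sensor that recruits repair proteins, had 0.63 ± 0.23 (adjusted p = 0.00602). Trim72, the muscle repair protein MG53, had −0.59 ± 0.46 (adjusted p = 0.0404) under loess and 0.38 under median centring, or −0.31 relative to the median gene. Ahnak, a large scaffold protein that binds dysferlin, was not called at −0.16 ± 0.20 on its brightest probe, while its others had −1.13, −0.14 and −0.52. Without replicate 2 Anxa5 had 0.86, Pdcd6 0.74 and Trim72 −0.77, all called again, and Ahnak was called lower at −0.24.

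Of 25 tested JAM and immunoglobulin adhesion genes, 4 were called higher and 4 lower, with 6 and 3 without replicate 2, 2 and 1 without replicate 3 and 2 and 2 without replicate 4. Without replicate 1 the counts were 3 and 2. Median centring gave 17 and 4, and centring on the tested genes 7 and 10. Vcam1 belongs to this list as well. Cadm1, an immunoglobulin adhesion protein, had 0.77 ± 0.33 (adjusted p = 0.00714). Pard3, a polarity scaffold that JAM proteins bind, had −0.72 ± 0.31 (adjusted p = 0.00736) under loess and 0.28 under median centring, or −0.41 relative to the median gene, and its other probes had −0.35, −1.15 and −0.22. Nptn, which encodes neuroplastin, was not called at 0.22 ± 0.20, though its other probe was called higher at 0.84. Without replicate 2 Cadm1 had 0.60 and Pard3 −0.86, both called again, and Nptn was called higher at 0.31.

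**Figure D5:**
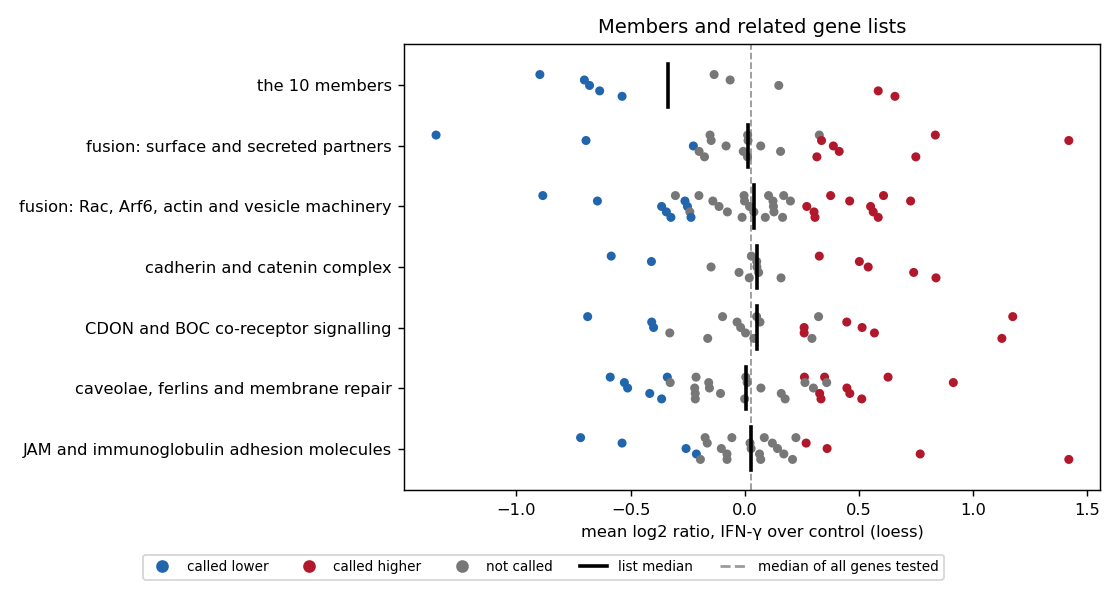
Mean log2 ratio of IFN-γ over control (x axis, loess) of each tested gene in the 10 members and the 6 related lists (rows), coloured by call, with a bar at each list's median and a dashed line at the median of all tested genes. The medians of the 6 lists lie at the dashed line and that of the members at −0.34, and most of the lower calls among the named genes turn positive under median centring.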

How the data were processed

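Total RNA of C2C12 cells was hybridised to 4 Agilent 2-colour mouse arrays, with IFN-γ-treated cells in Cy5 and untreated cells in Cy3. Agilent Feature Extraction 10.7.3.1 produced the deposited spot intensities, as named in the file headers. The same deposited files hold the log10 ratio of Cy5 over Cy3, per the file headers. The authors' value table is deposited in log2 units: against the scanner's log10 ratios its slopes were 3.32 on all 4 arrays, which gives its direction as Cy5 over Cy3, with column medians of −0.125 to −0.105 and a centring that stays unknown.

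Median spot intensities were corrected with normexp (offset 50) and normalised by loess within each array in limma 3.58.1 under R 4.3.3, with control spots at weight 0, outlier spots dropped and spots of a probe averaged. Intensities in the text had Aquantile normalisation after loess. Of 39429 probes on 43020 spots, 26055 received 1 symbol through RefSeq accessions, 13374 none and 0 several. Testing required a signal well above background, in either channel, on at least 3 of 4 arrays for that channel, which left 28933 probes and 15678 genes, each gene given by its brightest tested probe. Means were tested against 0 with lmFit and eBayes, two-sided, with Benjamini-Hochberg adjustment over all genes, or over all probes where stated. Every adjusted p in the text comes from limma unless another test is named. The number of arrays limits the precision.

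From each related list the text names up to 3 called genes with the largest absolute mean and the brightest gene not called. For Mymk the rule takes the 5 nearest tested genes, of which 1 is not reported here. The members and lists were chosen with earlier results of these data known. Alternatives changed the normalisation, background correction, filter, probe summary, test and arrays included.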

Additional observations from a re-analysis of the deposited data

Results flagged for a closer look

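Of 36 sets of 4 arrays, each a member probe or a named gene, 6 had 1 array whose gap to the nearest other array was large beside the whole range (Dixon's test at the 95% level). Chance flags about 1 in 20 such sets. The arrays were replicate 2 for Cdh15 with a log2 ratio of −0.54, for Myo10 with −1.55 and for Cadm1 with 1.26, and replicate 4 for Myof with −0.32, for the dimmer Cdon probe with −0.41 and for Ntn1 with 1.03. For Cdh15 the other arrays lay between −0.02 and 0.03, and for Myof between 0.01 and 0.03. No cause was tested.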

How the results depend on the processing

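Median centring in place of loess gave 10499 genes called higher, with 7 members called higher and 1 lower. It reversed Mymk to 0.10, Cdh15 to 0.89, Cdh2 to 0.34, Cav3 to 0.29, Dysf to 0.37 and Cdon to 0.47, and the further probes of Cdh2 to 0.35 and of Ncam1 to 0.77 and 0.61. The median tested gene stood at 0.69 there. Median centring on the tested genes gave 4709 genes higher and 5478 lower, and reversed Cdh15 to 0.22 and the Ncam1 probe A_55_P2028942 to 0.10. Myof, with no call, reversed to 0.033 without background correction and to 0.023 without replicate 4. Cdh15 reversed to 0.0015 without replicate 2. The mean of its probes reversed Ncam1 to −0.16. The cause was not tested. Leaving out each array in turn gave 1598 to 4062 genes higher and 927 to 2971 lower, with 2 members higher each time and 4 to 5 lower, the count of 4 without replicate 3 or 4. Over these fits Cdh15 ranged from −0.19 to 0.0015 and Myof from −0.096 to 0.023. Lower counts with 3 arrays follow in part from fewer samples. The methods' t-test gave 3766 genes higher and 2508 lower at an unadjusted p under 0.05 and 2582 and 1493 after Benjamini-Hochberg, of which 279 and 119 also passed 2-fold, with 2 members higher and 5 lower after adjustment and none past 2-fold. Under the Feature Extraction ratios, the authors' value table, no background correction, an offset of 10, both filters and the probe mean, the members again counted 2 higher and 5 lower. Of the comparisons of 1 member with 1 alternative, 130 kept direction and call, 11 reversed, 4 lost a call and 4 gained one. Some alternatives leave a member's ratio as it was or repeat another, so these comparisons are not independent. Brightness limits Myof, whose control signal was above background on 2 arrays. The dimmer Cdon probe moved with the scaling as well, from −0.63 under loess to −0.88 with the Feature Extraction ratios and −0.05 under median centring. Each array holds IFN-γ-treated and control RNA in its 2 channels, so every ratio is paired within its array and the labels give 1 group of ratios. The limma fit on these ratios keeps that pairing. The methods' t-test was unpaired, with equal variances, on the channel values, and ignores it.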
